A study of Homo sapiens with 8 samples.

Results

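The genes described here encode the GATA, TAL1 and ETS regulators of blood stem and progenitor cells, and the question was where 2 leukaemic fusion proteins sat at these genes. The 10 genes were GATA1, GATA2, TAL1, LYL1, LMO2, ERG, FLI1, GFI1B, KLF1 and NFE2. Every peak was taken whose summit, the base with the highest pile-up of fragments, lay in the gene body or within 20 kb of it on hg19. This rule found 263 of the 235023 peaks of the series. They were 76 of 70833 AML1-ETO peaks at 12 h and 108 of 105769 at 48 h, and 44 of 28325 ETO2-GLIS2 peaks at 12 h and 35 of 30096 at 48 h.

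Chromatin immunoprecipitation with sequencing (ChIP-seq) with antibody against the HA tag was carried out in U937, a human monoblastic cell line. Each fusion protein was expressed with an HA tag from a doxycycline-inducible retroviral vector in its own stable line, and each line was 1 clone. Doxycycline was given at 5 µg/ml for 12 h or 48 h in both lines, which gives the 4 groups AML1-ETO 12 h, AML1-ETO 48 h, ETO2-GLIS2 12 h and ETO2-GLIS2 48 h. The 8 libraries were 4 ChIP libraries and 4 inputs, with 1 of each for every group. No difference between groups therefore has a replicate check, no test between groups was made, and clone, fusion protein and library cannot be told apart. The peak lists hold neither read numbers nor expression values. The read numbers of the libraries and the expression of the 10 genes were not analysed here, and the cell line was not checked against its markers.

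AML1-ETO, the product of t(8;21), joins the DNA-binding Runt domain of RUNX1 to the corepressor ETO. ETO2-GLIS2, found in childhood megakaryoblastic leukaemia, joins the ETO family member ETO2 to the zinc fingers of GLIS2. In blood stem cells RUNX1 shares many enhancers with TAL1, LYL1, LMO2, GATA2, ERG and FLI1, a group often called the heptad. TAL1 and LYL1 are basic helix-loop-helix proteins that bind E-boxes with an E-protein partner, LMO2 bridges them to GATA factors, and ERG and FLI1 bind ETS motifs. GATA1, KLF1, GFI1B and NFE2 act later, in red cells and platelets. These genes also regulate one another through enhancers in and around their own gene bodies, for which reason peaks were described by their distance from the start site. Distances below 0 are upstream of the start site of the canonical transcript.

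**Figure D1:**
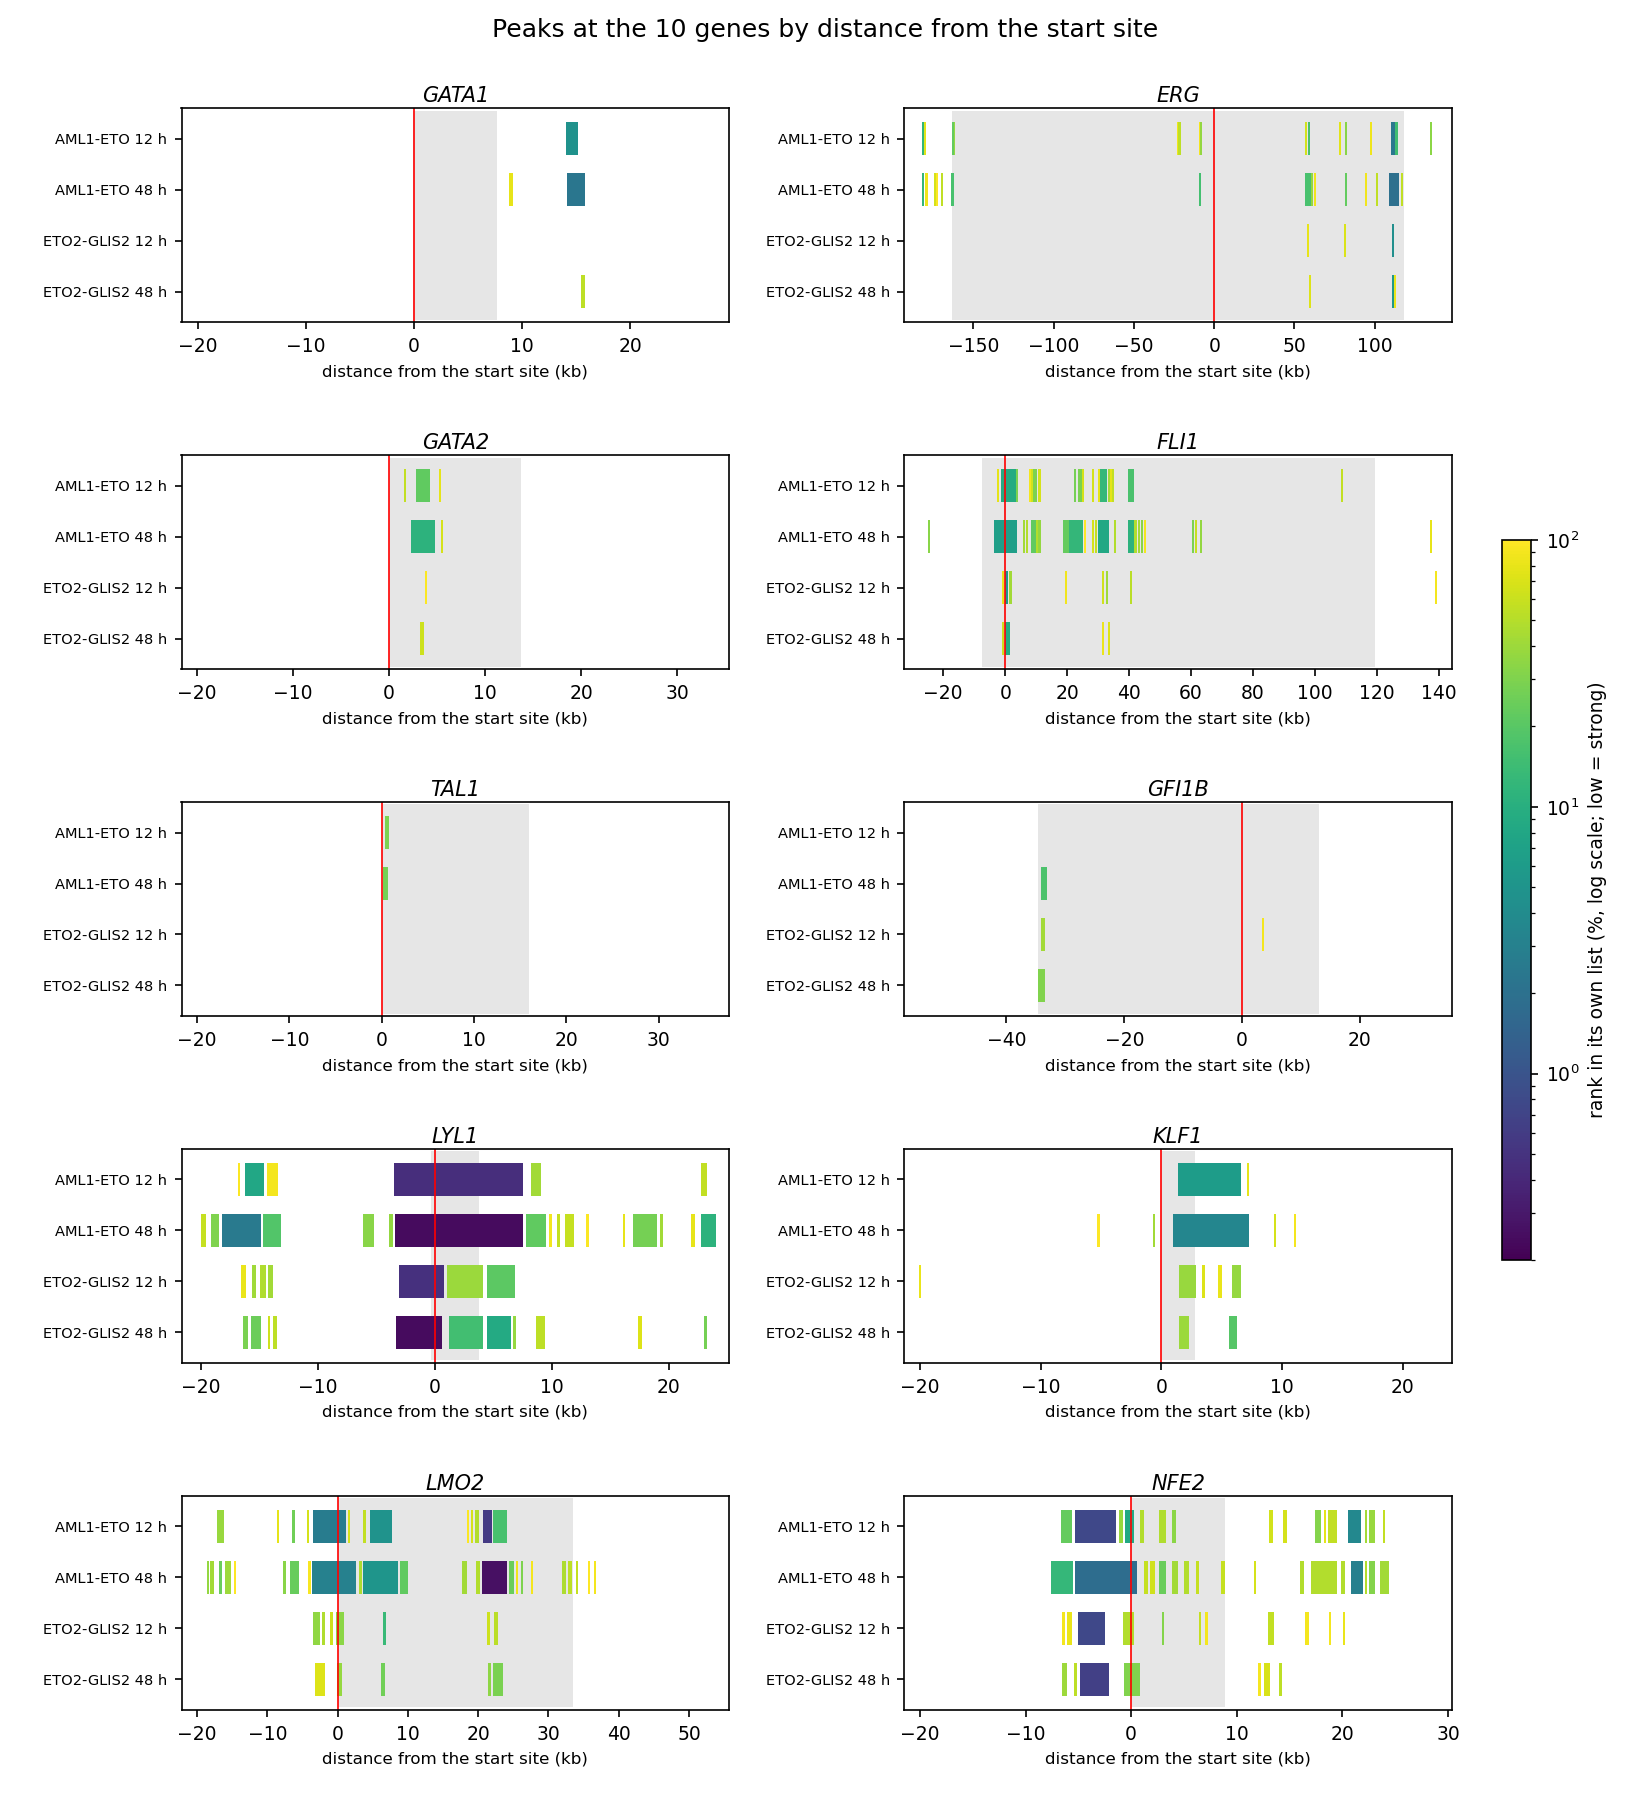
Positions of all 263 peaks. Each panel is 1 gene with distance from the start site in kb on the x axis (red line at 0, gene body in grey) and the 4 peak lists as rows. Bars are peaks drawn to their width (narrow ones widened to stay visible), coloured by rank in their own list on a log scale, with dark colours strong. LYL1, LMO2 and NFE2 carry broad dark bars in both AML1-ETO rows, and TAL1 has bars in the AML1-ETO rows only.

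The 10 genes fell into 3 kinds by their strongest peak. LYL1, NFE2, ERG and FLI1 had a peak among the strongest 10% of the list in all 4 lists. GATA1, LMO2 and KLF1 had one in the AML1-ETO lists, and GATA2, TAL1 and GFI1B had none in any list. Strength is given as the rank of the peak by −log10 q in its own list, also as a percent of that list's peaks, so that a low percent is a strong peak. Ranks were used because q-values and fold enrichment depend on the depth of each library, and tied peaks share the higher rank. The AML1-ETO lists are longer, so their strongest 10% holds more peaks, and the 3 kinds depend on list length. For example, the strongest ETO2-GLIS2 peak of LMO2 at 12 h (rank 3711) was outside the strongest 10% of its list. The strongest AML1-ETO peak of FLI1 at 12 h (rank 6255) was inside.

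Nearly every gene had some peak. With AML1-ETO, 9 of 10 genes had a peak at 12 h and 10 of 10 at 48 h, where 77.6% and 80.3% of all 20162 protein-coding genes did. With ETO2-GLIS2, 8 of 10 did at 12 h and 9 of 10 at 48 h, against 66.4% and 66% of all. GFI1B was without a peak for AML1-ETO at 12 h, GATA1 and TAL1 for ETO2-GLIS2 at 12 h, and TAL1 for ETO2-GLIS2 at 48 h. Peaks in all 4 lists were present at 7 of 10 genes, against 59.7% of all. These shares were near those of all genes.

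A peak of the strongest 10% was present at 7 of 10 genes for AML1-ETO at 12 h and at 7 of 10 at 48 h, against 36.1% and 50.7% of all protein-coding genes. For ETO2-GLIS2 it was present at 4 of 10 genes at 12 h and 4 of 10 at 48 h, against 17.5% and 19.6%. The 4 genes with such a peak in every list compare with 13% of all genes. With 10 genes these shares have wide exact 95% intervals, from 34.8% to 93.3% for 7 of 10 and from 12.2% to 73.8% for 4 of 10. GATA1 counts among the 7 by a peak at the start site of HDAC6. ERG (322 kb) and FLI1 (167 kb) have the longest windows of the 10 genes, and the comparison with all genes was not matched by length.

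**Figure D2:**
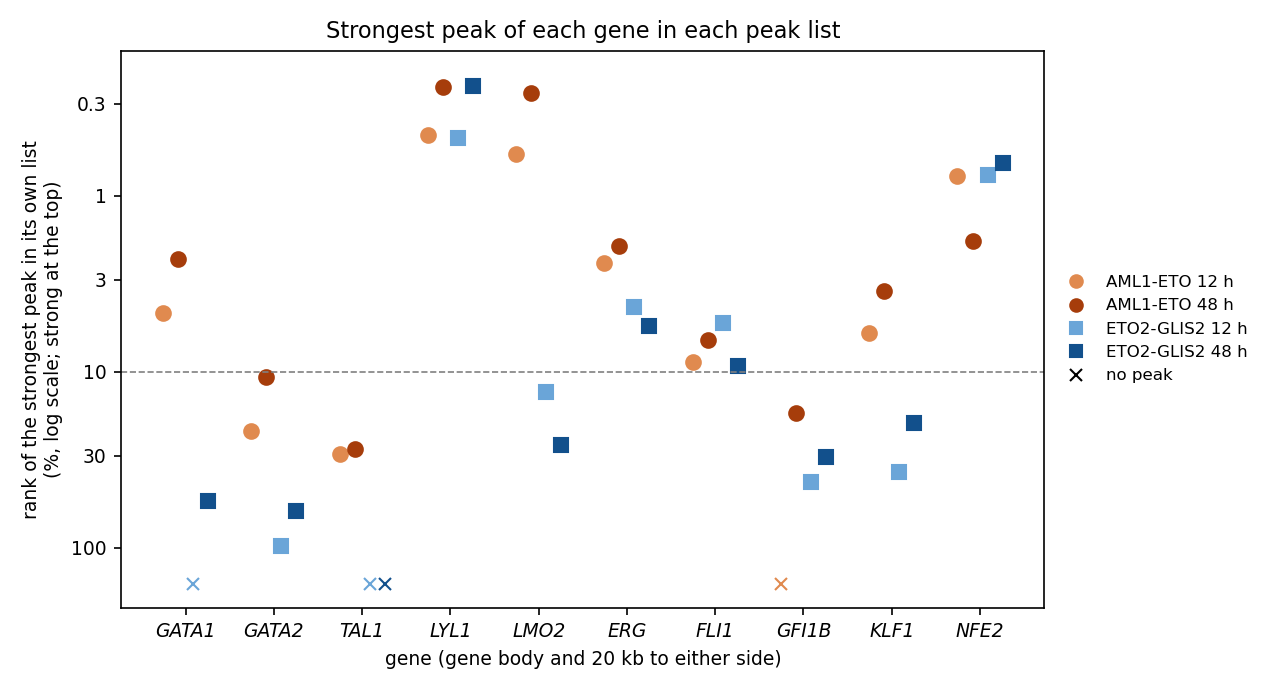
Strongest peak per gene. Genes are on the x axis, and the y axis gives the rank of the strongest peak in its own list in percent on an inverted log scale, with 1 point for each of the 4 lists and crosses where the list has no peak. The dashed line marks 10%. LYL1 is at 0.470% or lower in all 4 lists, while LMO2 is at 0.261% for AML1-ETO at 48 h and at 26.3% for ETO2-GLIS2 at 48 h.

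The windows of the 10 genes span 942.975 kb and held 8.06 AML1-ETO peaks per 100 kb at 12 h and 11.5 at 48 h, against 3.55 and 5.36 over the windows of all protein-coding genes. ETO2-GLIS2 had 4.67 per 100 kb at 12 h and 3.71 at 48 h, against 1.48 and 1.61. The peaks were uneven among the genes. FLI1 and LMO2 each had 24 AML1-ETO peaks at 48 h, NFE2 and LYL1 each 17 and ERG 15, while GATA2 and GATA1 had 2 each and TAL1 and GFI1B 1 each. The order of the 2 proteins by number of peaks depended on list length. When each list was limited to its 28325 strongest peaks, AML1-ETO kept 36 at 12 h and 33 at 48 h, against 44 and 35 for ETO2-GLIS2, so that the direction turned.

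**Figure D3:**
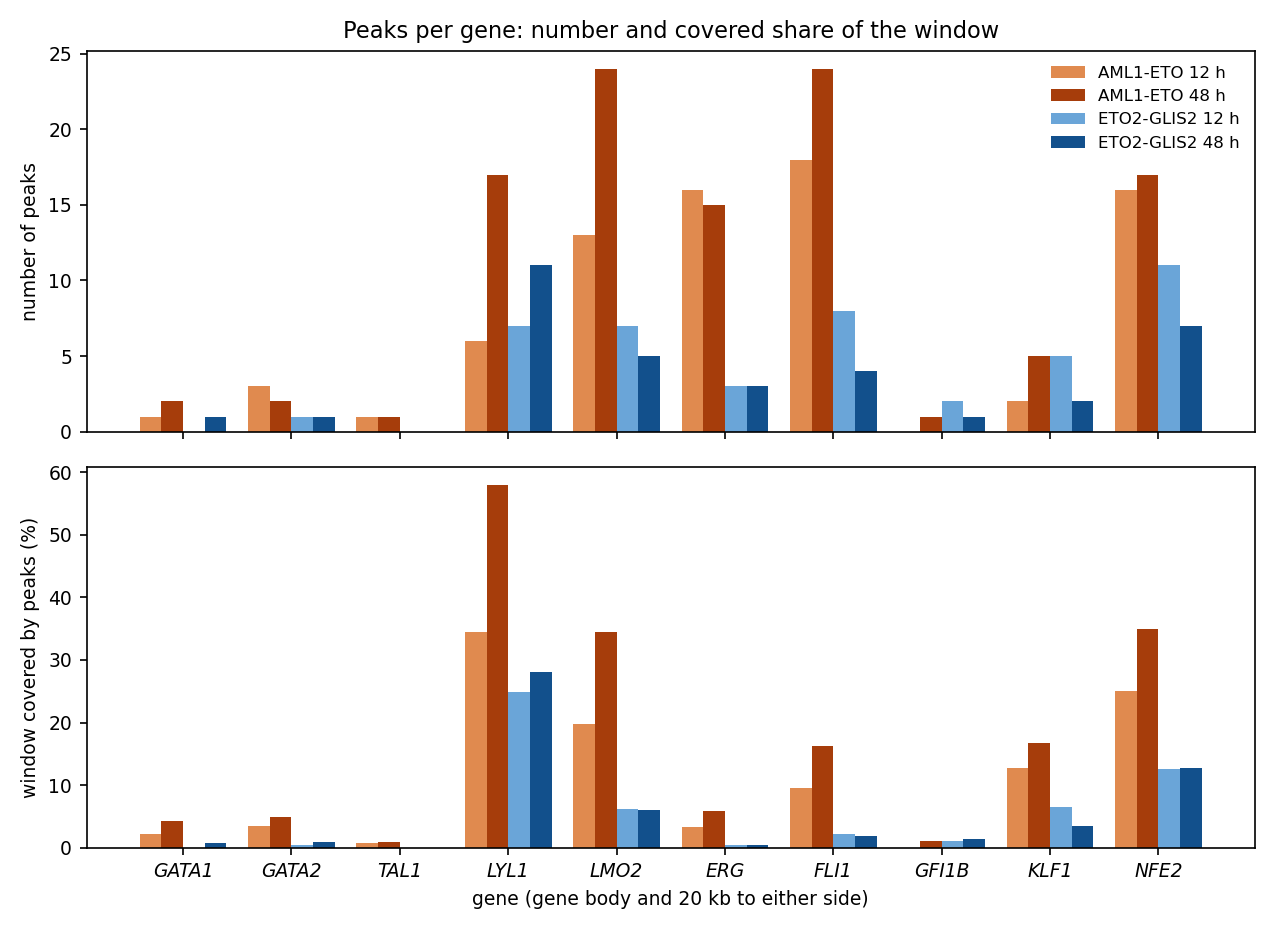
Number of peaks (upper panel) and percent of the gene's window covered by peaks (lower panel), with genes on the x axis and 1 bar for each of the 4 peak lists, without replicates. LYL1 is covered most, with 57.9% of its window under AML1-ETO peaks at 48 h and 28.1% under ETO2-GLIS2 peaks at 48 h.

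LYL1 (chr19:13209847-13213975, minus strand) carried the strongest peaks of the 10 genes. LYL1 is the relative of TAL1 that is found in complexes with AML1-ETO and E proteins. The AML1-ETO peak at 12 h (chr19:13206087-13217119, 11033 bp) had its summit at -1615 bp, a fold enrichment of 56.2 and rank 320 (0.452%). At 48 h (chr19:13206087-13217061, 10975 bp) the summit was at -1627 bp, with 70.0-fold enrichment and rank 256 (0.242%). The ETO2-GLIS2 peak at 12 h (chr19:13212891-13216707, 3817 bp) had its summit at -1595 bp, with 97.3-fold enrichment and rank 133 (0.470%). At 48 h (chr19:13213075-13217015, 3941 bp) the summit was again at -1595 bp, with 139-fold enrichment and rank 72 (0.239%). The 4 summits thus lay within 32 bp of each other, upstream of the gene.

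The AML1-ETO peaks covered the whole LYL1 gene body, 100% at both times, as 1 interval. ETO2-GLIS2 covered 93.7% of it at 12 h and 85.8% at 48 h, but in separate peaks. Of these, a peak over the gene's 3′ part ranked at 39.6% at 12 h and 15.3% at 48 h, and one downstream of the gene at 5.26 kb ranked at 21.0% and, at 5.22 kb, at 8.68%. All 7 ETO2-GLIS2 peaks at 12 h and all 11 at 48 h in the LYL1 window overlapped AML1-ETO peaks. The next strongest AML1-ETO peak of the window lay at -15.4 kb at both times (8.08% and 2.52%), within 1 kb of the start sites of TRMT1 and NACC1.

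The 200 bases around the AML1-ETO summit at 48 h are shown because both proteins had their strongest peak among the 10 genes there. They are from chr19:13215199-13215398 (hg19, plus strand), and no base is in capitals because none of the motifs searched was found in them.

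LYL1 upstream: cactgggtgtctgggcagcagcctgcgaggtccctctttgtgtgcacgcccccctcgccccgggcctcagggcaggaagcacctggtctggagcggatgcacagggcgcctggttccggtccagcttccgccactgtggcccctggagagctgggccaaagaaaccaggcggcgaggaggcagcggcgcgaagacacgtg

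Every motif was searched on both strands. The Runt motif was searched as TGTGGT and, in its other common form, as TGCGGT. The GATA motif was AGATAA or, with another first base, also TGATAA, and the ETS motif was GGAAGT. There were also the E-box with the letters CAGCTG and a further E-box written CAGATG. The AP-1 site was read as TGAGTCA or, with the other middle base, as TGACTCA, and the GLIS word was TGGGGGG. The composite bound by TAL1 with GATA factors was CTG followed after 7 or 8 bases by the letters of a GATA core. A match to the GATA motif can overlap the composite. The absence of these letters from a window of 200 bases is a description of that window only.

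TAL1 (chr1:47681962-47697897, minus strand), whose product nucleates the complex with LMO2 and GATA factors, had 1 AML1-ETO peak at each time and no ETO2-GLIS2 peak at either. The peak at 12 h (chr1:47697152-47697552, 401 bp) had its summit at 443 bp from the start site, in intron 1, with 5.77-fold enrichment and rank 20803 (29.4%). The peak at 48 h (chr1:47697220-47697734, 515 bp) had it at 420 bp, with 5.02-fold enrichment and rank 29128 (27.5%). Both overlapped each other, and the summits were 67 and 90 bp from another annotated start site of the gene. They were of medium strength in their lists.

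LMO2 (chr11:33880122-33913623, minus strand), the LIM-domain bridge of the TAL1 complex, ranked high for AML1-ETO and lower for ETO2-GLIS2. The strongest AML1-ETO peak had its summit at 21.6 kb, in intron 2 and 54 bp from an internal start site. At 12 h (chr11:33891638-33892924, 1287 bp) it had 52.3-fold enrichment and rank 412 (0.582%), and at 48 h (chr11:33889466-33893137, 3672 bp) 68.5-fold and rank 276 (0.261%). The summits at both times were the same base. ETO2-GLIS2 also had peaks there, but they ranked in the middle of its lists. At 12 h their summits were at 21.3 kb (61.9%) and 22.6 kb (52.8%), and at 48 h at 21.5 kb (34.6%) and 22.9 kb (29.0%), each within 1 kb of an internal start site. An AML1-ETO peak of 12 h at 22.4 kb (16.2%) and those of 48 h at 26.3 kb (30.0%) and 27.8 kb (90.0%) were the other ones near internal starts.

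The strongest ETO2-GLIS2 peak of LMO2 lay in intron 1. At 12 h (chr11:33906759-33907213, 455 bp) its summit was at 6.62 kb, with 16.8-fold enrichment and rank 3711 (13.1%), and at 48 h (chr11:33906896-33907422, 527 bp) at 6.58 kb, with 9.48-fold and rank 7903 (26.3%). AML1-ETO had broader peaks over the same place, with summits at 6.33 kb at both times (4.82% at 12 h and 5.05% at 48 h), and the 4 summits spread over 290 bp. Around the canonical start site AML1-ETO had its summits upstream at -1912 bp (2.68%) and -1882 bp (3.0%), in peaks of 4722 and 6276 bp that covered the start site. Within these AML1-ETO peaks ETO2-GLIS2 had 4 separate peaks at 12 h, at 544 bp (33.7%), -819 bp (61.6%), -1895 bp (47.9%) and -2811 bp (35.5%), the third of them with its summit 17 bp from that of AML1-ETO. At 48 h it had 2, at 211 bp (37.1%) and -2515 bp (72.0%).

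The intron 1 window is shown because it is the LMO2 region with the smallest spread of summits among those in all 4 lists. It is chr11:33907195-33907394 (hg19, plus strand) around the AML1-ETO summit at 48 h, with 1 ETS and 2 Runt matches in capitals.

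LMO2 intron 1: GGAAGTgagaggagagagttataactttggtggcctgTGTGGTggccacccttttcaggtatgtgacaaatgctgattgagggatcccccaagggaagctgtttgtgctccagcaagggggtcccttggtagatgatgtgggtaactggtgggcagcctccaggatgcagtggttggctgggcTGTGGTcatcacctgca

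ERG (chr21:39751949-40033704, minus strand) is the ETS factor that sustains blood stem cells. Its strongest peak in every list lay in intron 9, about 111 kb downstream of the canonical start. For AML1-ETO the peak at 12 h (chr21:39757837-39760275, 2439 bp) had 30.1-fold enrichment and rank 1711 (2.42%), and the peak at 48 h (chr21:39755274-39761557, 6284 bp) 32.1-fold and rank 2046 (1.93%). For ETO2-GLIS2 the peak at 12 h (chr21:39758865-39759744, 880 bp) had 37.3-fold enrichment and rank 1221 (4.31%), and the peak at 48 h (chr21:39758949-39759612, 664 bp) 32.4-fold and rank 1651 (5.49%). The 4 summits lay within 22 bp, the smallest spread of the 13 regions that all 4 lists held.

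The window around this summit is shown for that reason. It is chr21:39759052-39759251 (hg19, plus strand) around the AML1-ETO summit at 48 h, with 1 AP-1 match and 2 CAGCTG E-boxes in capitals and no Runt, GATA or ETS match.

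ERG intron 9: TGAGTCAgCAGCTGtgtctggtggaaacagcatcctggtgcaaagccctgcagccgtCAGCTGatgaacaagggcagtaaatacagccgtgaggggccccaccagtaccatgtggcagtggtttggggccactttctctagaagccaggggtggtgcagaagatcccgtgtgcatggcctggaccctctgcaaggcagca

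The other ERG peaks were mostly those of AML1-ETO, 16 in all at 12 h and 15 at 48 h, against 3 for ETO2-GLIS2 at each time. The AML1-ETO lists were longer, and the ERG peaks were not counted on their own with lists of equal length. AML1-ETO had peaks at the distal annotated start sites. At 12 h their summits were at -163 kb (22.7%) and -162 kb (36.5%), and at 48 h 1 broad peak had its summit at -162 kb (16.5%). No ETO2-GLIS2 peak had its summit within 1 kb of an ERG start site. A second region in all 4 lists was in intron 2 near 58.7 kb, with AML1-ETO at 16.8% and 16.4% and ETO2-GLIS2 at 78.7% and 71.9%.

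Outside the annotated gene, AML1-ETO alone had a peak at -181 kb at both times (11.6% at 12 h and 12.1% at 48 h), the strongest ERG peak without ETO2-GLIS2. Its window is shown because a Runt match stands directly beside an ETS match. It is chr21:40051630-40051829 (hg19, plus strand) around the summit at 48 h, with 2 ETS matches and 1 Runt match in capitals.

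ERG upstream: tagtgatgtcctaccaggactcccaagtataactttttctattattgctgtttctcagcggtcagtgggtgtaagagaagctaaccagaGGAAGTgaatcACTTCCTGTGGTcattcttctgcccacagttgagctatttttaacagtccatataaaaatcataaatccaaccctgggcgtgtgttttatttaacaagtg

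FLI1 (chr11:128556430-128683162, plus strand), the close relative of ERG that also acts in megakaryocytes, was the only one of the 10 genes with the summit of an ETO2-GLIS2 peak of the strongest 10% within 1 kb of its canonical start site. At 12 h (chr11:128563777-128564920, 1144 bp) the summit was at 69 bp, with 32.2-fold enrichment and rank 1505 (5.31%), and at 48 h (chr11:128563837-128565576, 1740 bp) at 88 bp, with 23.3-fold and rank 2801 (9.31%). A second, weaker ETO2-GLIS2 peak stood at -618 bp at 12 h (80.7%) and -862 bp at 48 h (61.7%).

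AML1-ETO covered the FLI1 start site too, with its summits inside intron 1. At 12 h (chr11:128562669-128567388, 4720 bp) the summit was at 2.19 kb, with 14.9-fold enrichment and rank 6255 (8.83%), and at 48 h (chr11:128560497-128567877, 7381 bp) at 1.88 kb, with 18.0-fold and rank 6957 (6.58%). The strongest summits of the 4 lists spread over 2116 bp in this region, and a weaker ETO2-GLIS2 peak of 12 h at 1.93 kb (42.3%) had its summit 254 bp from that of AML1-ETO. At a further region near 31.6 kb in intron 1 AML1-ETO ranked at 12.6% and 8.33%, while ETO2-GLIS2 had peaks at 31.4 kb (64.2%) and 32.9 kb (41.0%) at 12 h and at 31.5 kb (84.0%) and 33.4 kb (72.0%) at 48 h. The other AML1-ETO summit close to an annotated start of FLI1 was at 63.4 kb at 48 h (36.9%).

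GATA1 (chrX:48644948-48652718, plus strand), the regulator of red cell and megakaryocyte maturation, had no peak summit inside the gene in any of the 4 lists. AML1-ETO had a strong peak at 14.8 kb, downstream of the gene. At 12 h (chrX:48659112-48660157, 1046 bp) it had 21.9-fold enrichment and rank 3271 (4.62%), and at 48 h (chrX:48659191-48660834, 1644 bp) 33.9-fold and rank 2416 (2.28%). This summit lay 7 bp from a start site of HDAC6 at 12 h and 6 bp at 48 h, so it entered by the window of 20 kb and stands at another gene's promoter. The 1 ETO2-GLIS2 peak, at 48 h (chrX:48660491-48660835, 345 bp), was at 15.7 kb, with 5.17-fold enrichment and rank 16294 (54.1%). Its summit too was at a start site of HDAC6, 59 bp away. A weak AML1-ETO peak of 48 h at 8.83 kb (79.1%) was closest to GATA1 itself.

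GATA2 (chr3:128198270-128212044, minus strand), the GATA factor of stem cells, had its strongest peak of every list in intron 1, within 1 kb of internal start sites. The AML1-ETO peak at 12 h (chr3:128207790-128209255, 1466 bp) had its summit at 3.14 kb, with 7.11-fold enrichment and rank 15395 (21.7%). At 48 h (chr3:128207287-128209723, 2437 bp) it was at 3.06 kb, with 12.0-fold and rank 11343 (10.7%). The ETO2-GLIS2 peak at 12 h (chr3:128208097-128208315, 219 bp) was at 3.93 kb, with 3.05-fold enrichment and rank 27573 (97.3%), among the weakest of its list. At 48 h (chr3:128208374-128208876, 503 bp) it was at 3.59 kb, with 4.74-fold and rank 18559 (61.7%). The remaining GATA2 peaks were AML1-ETO peaks at 1.63 kb (56.9%) and 5.33 kb (78.0%) at 12 h and 5.43 kb (67.8%) at 48 h.

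The GATA2 window is shown as the strongest one of the GATA genes that lies in the gene itself. It is chr3:128208883-128209082 (hg19, plus strand) around the AML1-ETO summit at 48 h, with 1 Runt match in capitals.

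GATA2 intron 1: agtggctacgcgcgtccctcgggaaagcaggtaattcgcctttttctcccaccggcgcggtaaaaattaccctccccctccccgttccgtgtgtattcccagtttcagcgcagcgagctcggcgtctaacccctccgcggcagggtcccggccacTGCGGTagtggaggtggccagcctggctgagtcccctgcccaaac

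NFE2 (chr12:54685895-54694799, minus strand) encodes the large subunit of the megakaryocyte factor NF-E2. Its strongest peak was upstream of the gene in all 4 lists. For AML1-ETO at 12 h (chr12:54696223-54700153, 3931 bp) the summit was at -3347 bp, with 48.0-fold enrichment and rank 548 (0.774%). At 48 h (chr12:54694199-54700141, 5943 bp) it was at -3460 bp, with 37.6-fold and rank 1908 (1.80%). For ETO2-GLIS2 at 12 h (chr12:54697302-54699806, 2505 bp) it was at -3538 bp, with 87.8-fold enrichment and rank 216 (0.763%), and at 48 h (chr12:54696855-54699667, 2813 bp) at -3521 bp, with 89.9-fold and rank 197 (0.655%). The summits spread over 191 bp, and here the ETO2-GLIS2 peak stood higher in its list than the AML1-ETO peak at both times.

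This window is shown as the strongest place of ETO2-GLIS2 after LYL1. It is chr12:54698220-54698419 (hg19, plus strand) around the ETO2-GLIS2 summit at 48 h and also holds the AML1-ETO summit of 48 h. The capitals mark, in order, a Runt match, a GATA match and the composite of an E-box part with GATA, all read on the minus strand.

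NFE2 upstream: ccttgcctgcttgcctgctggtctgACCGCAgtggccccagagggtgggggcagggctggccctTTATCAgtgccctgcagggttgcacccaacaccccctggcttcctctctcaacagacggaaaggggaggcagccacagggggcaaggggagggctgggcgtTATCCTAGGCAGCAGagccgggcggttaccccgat

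At the NFE2 start site, which COPZ1 shares, AML1-ETO had a separate summit at -127 bp at 12 h (8.58%) and at 874 bp (48.5%), while at 48 h the broad upstream peak reached over the start. ETO2-GLIS2 had summits at -183 bp at 12 h (48.6%) and 115 bp at 48 h (30.7%). Near internal starts, AML1-ETO had peaks at 3.02 kb (47.3%) and 4.12 kb (34.4%) at 12 h, and at 2.74 kb (24.1%), 4.05 kb (42.0%) and 5.06 kb (48.9%) at 48 h. The ETO2-GLIS2 peak at 3.03 kb at 12 h ranked at 31.7%. A strong AML1-ETO peak at 20.9 kb (3.66% at 12 h and 2.96% at 48 h) lay at the start sites of CBX5 and HNRNPA1.

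GFI1B (chr9:135819387-135867074, plus strand), a repressor of the red cell and platelet lineages, was covered almost only at its distal annotated start. This start is within 1 kb of the start site of TSC1, so the peak cannot be assigned to either gene. AML1-ETO had no peak at 12 h, and at 48 h (chr9:135819995-135820946, 952 bp) a summit at -33.8 kb with 7.53-fold enrichment and rank 18125 (17.1%). ETO2-GLIS2 had it at -33.6 kb at 12 h (chr9:135820002-135820698, 697 bp), with 6.10-fold enrichment and rank 11991 (42.3%), and at -33.7 kb at 48 h (chr9:135819470-135820677, 1208 bp), with 8.19-fold and rank 9232 (30.7%). The only other peak was a weak one of ETO2-GLIS2 at 12 h (90.1%), 3.45 kb downstream of the canonical start.

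KLF1 (chr19:12995236-12998015, minus strand), the activator of adult globin genes, had broad AML1-ETO peaks with summits in exon 3. At 12 h (chr19:12991414-12996658, 5245 bp) the summit was at 2.21 kb, with 18.8-fold enrichment and rank 4294 (6.06%), and at 48 h (chr19:12990722-12997078, 6357 bp) at 2.24 kb, with 27.4-fold and rank 3674 (3.47%). They covered 51.2% and 66.3% of the gene body but not its start site. ETO2-GLIS2 had its strongest peak within 1 kb of a start site of the neighbour DNASE2. At 12 h (chr19:12991408-12992184, 777 bp) its summit was at 5.96 kb, with 6.75-fold enrichment and rank 10571 (37.3%), and at 48 h (chr19:12991727-12992389, 663 bp) at 5.93 kb, with 12.5-fold and rank 5871 (19.5%). Over the gene itself ETO2-GLIS2 had a peak at 2.17 kb at 12 h (38.8%) and 1.86 kb at 48 h (39.1%). The one summit within 1 kb of the KLF1 start was an AML1-ETO peak of 48 h at -592 bp (42.0%).

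A summit within 1 kb of any annotated start site of the gene was found at 5 of 10 genes for AML1-ETO at 12 h and 8 of 10 at 48 h, against 54% and 59.8% of all protein-coding genes. For ETO2-GLIS2 it was 5 of 10 at both times, against 42.8% and 45.7%. Such a summit in all 4 lists was found at 3 of 10 genes, GATA2, LMO2 and NFE2, against 35.8% of all. These shares were close to those of all genes. Counted by the peak interval in place of its summit, a start site lay inside an AML1-ETO peak at 7 of 10 genes at 12 h and 8 of 10 at 48 h, against 44.6% and 54.8% of all. For ETO2-GLIS2 it was 4 of 10 at both times, against 33.2% and 37.7%. The canonical start sites of LYL1, LMO2, FLI1 and NFE2 were inside a peak in every list, and those of the other 6 genes in none. The share of all genes with the canonical start inside a peak was not computed.

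Overlap of peaks between the proteins was counted when they shared at least 1 bp. Of the ETO2-GLIS2 peaks at the 10 genes, AML1-ETO peaks were overlapped by 35 of 44 at 12 h (79.5%, exact 95% interval 64.7 to 90.2) and by 32 of 35 at 48 h (91.4%, 76.9 to 98.2), against 74.5% and 83.4% of all ETO2-GLIS2 peaks. Of the AML1-ETO peaks, 21 of 76 at 12 h (27.6%, 18.0 to 39.1) and 19 of 108 at 48 h (17.6%, 10.9 to 26.1) overlapped an ETO2-GLIS2 peak, against 26.2% and 17.8% of all AML1-ETO peaks. All 4 intervals, which cover counting error only and treat peaks of 1 locus as independent, held the share of the whole list. With at least 50% of the peak overlapped, the share at 48 h was 91.4% of the ETO2-GLIS2 but 0.926% of the AML1-ETO peaks. With summits within 200 bp it was 31.4% and 10.2%, and with lists of equal length 88.6% and 54.5%.

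In the overlapping pairs the order of the proteins depended on how rank was counted. As a percent of its own list the AML1-ETO peak ranked higher in 30 of 35 pairs at 12 h and 30 of 32 at 48 h, against 77.4% and 88.7% of all overlapping pairs of the 2 lists. The percent favours the longer list, which was that of AML1-ETO. By rank number, with 1 for the strongest peak of a list, AML1-ETO ranked higher in 26 pairs at 12 h and 21 at 48 h and ETO2-GLIS2 in 9 and 11, where AML1-ETO ranked higher in 47.5% and 53.7% of all pairs. Rank numbers were compared after the percents had been seen. The AML1-ETO peak was wider in 33 pairs at 12 h and 31 at 48 h, against 80.8% and 93.4% of all. The pairs are not independent, since 35 ETO2-GLIS2 peaks at 12 h fell on 21 AML1-ETO peaks and 32 at 48 h on 19. By both counts ETO2-GLIS2 ranked higher at 48 h at the upstream peaks of LYL1 and NFE2. By rank number it also did at ERG intron 9 (1651 against 2046), the FLI1 start (2801 against 6957) and the distal GFI1B start (9232 against 18125). The rest of the 11 pairs were further ones of the LYL1 window (ETO2-GLIS2 ranks from 8136 to 21677) and NFE2 at -6.18 kb (12154 against 13322). Among the members' pairs the median ETO2-GLIS2 rank was 47.9% at 12 h and 37.1% at 48 h, and the median AML1-ETO rank 8.08% and 3.24%. Over all pairs these were 38.8% and 40.4%, and 14.3% and 8.13%. The median distance between summits was 468 bp at 12 h and 579.5 bp at 48 h, against 177 and 245 bp over all pairs.

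Between the time points, 60 of 76 AML1-ETO peaks of 12 h (78.9%, interval 68.1 to 87.5) overlapped a peak of 48 h, against 73.9% of the whole list. Of the 108 of 48 h, 42 (38.9%, 29.7 to 48.7) overlapped one of 12 h, against 36.8%. For ETO2-GLIS2, 25 of 44 peaks of 12 h (56.8%, 41.0 to 71.7) overlapped one of 48 h, against 60.6%, and 23 of 35 of 48 h (65.7%, 47.8 to 80.9) one of 12 h, against 54.6%. These intervals too held the share of the whole list.

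Joined across lists wherever they overlapped, the 263 peaks formed 130 regions. Of these regions 13 were in all 4 lists, and they lay at 7 genes: LMO2 had 3, LYL1, ERG, FLI1 and NFE2 had 2 each, and GATA2 and KLF1 had 1 each. A further 9 were in 3 lists, 23 in 2 and 85 in 1. AML1-ETO at 48 h alone held 62 regions, AML1-ETO at 12 h alone 15 and both AML1-ETO lists without ETO2-GLIS2 20. ETO2-GLIS2 alone held 8, of which 6 were of 12 h and 2 of 48 h. Regions were not formed from the whole lists, so no share over all peaks stands beside these counts. The AML1-ETO lists were also the longer ones.

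The strength of regions was then described by the lists that held them, leaving out those in 3 lists. A wide peak can overlap peaks of more lists, so the order was partly set by how regions were joined. The same values were not computed over the whole lists, and no conclusion is drawn from the order. The median AML1-ETO rank at 48 h was 3.47% in the 13 regions of all 4 lists, with a range from 0.242% to 16.4%. It was 29.6% in the 20 regions of both AML1-ETO lists (2.96% to 94.5%) and 57.2% in the 62 of AML1-ETO at 48 h alone (21.7% to 98.1%). The 8 regions of ETO2-GLIS2 alone had a median rank of 90.1% in the ETO2-GLIS2 lists, and the strongest of them, downstream of NFE2 at 14.2 kb near HNRNPA1, stood at 54.1%.

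The motifs were then counted in windows of 200 bp around the summits at 48 h. A Runt match was in 20 of 108 AML1-ETO windows (18.5%, exact 95% interval 11.7 to 27.1) and 10 of 35 ETO2-GLIS2 windows (28.6%, 14.6 to 46.3), against 24.9% and 21.9% of all summits of the lists. A GATA match was in 15 AML1-ETO windows (13.9%, 7.99 to 21.9) and 3 ETO2-GLIS2 windows (8.57%, 1.80 to 23.1), against 12.3% and 7.9%. An ETS match was in 10 AML1-ETO windows (9.26%) and 5 ETO2-GLIS2 windows (14.3%), against 14.3% and 17.8%.

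The E-box CAGCTG was in 14 AML1-ETO windows (13.0%) and 2 ETO2-GLIS2 windows (5.71%), against 13.7% and 16.8% of all. The E-box CAGATG was in 13 (12.0%) and 4 (11.4%), against 15% and 14.3%. The composite with GATA was in 3 windows of each (2.78% and 8.57%), against 3.01% and 2.06%. AP-1 was in 4 (3.70%) and 2 (5.71%), against 4.74% and 4.84%, and the GLIS word in 2 of each (1.85% and 5.71%), against 3.83% and 7.89%. The exact intervals for Runt and GATA held the share of all summits in both lists.

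Of 20 partner and family genes taken for comparison, 19 had an AML1-ETO peak at 12 h and 19 at 48 h, and 16 and 17 an ETO2-GLIS2 peak. Over all protein-coding genes these shares were 77.6%, 80.3%, 66.4% and 66%. They were RUNX1, SPI1, ETS1, ETV6, ELF1, GATA3, TAL2, LMO1, LMO4, LDB1, ZFPM1, TCF3, TCF4, TCF12, SSBP2, SSBP3, GFI1, MYB, HHEX and MEIS1. A promoter summit was present at 17 of 20 for AML1-ETO and 15 of 20 for ETO2-GLIS2 at both times. Among all protein-coding genes, AML1-ETO had such a summit at 54% (12 h) and 59.8% (48 h). ETO2-GLIS2 had one at 42.8% (12 h) and 45.7% (48 h). A peak of the strongest 10% was present at 16 and 17 for AML1-ETO and at 9 and 9 for ETO2-GLIS2. Over all genes it was 36.1% and 50.7%, and 17.5% and 19.6%. Partners were not matched to other genes by length, and RUNX1 alone held 100 and 152 AML1-ETO peaks. GATA3 had no peak in any list.

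The promoter pattern differed between the proteins at both times at SPI1, LMO1, LMO4 and TCF4. How many of all protein-coding genes have such a pattern was not computed, and the AML1-ETO lists were the longer ones. Nothing particular to these 4 genes is therefore read from it. SPI1, the ETS factor of myeloid cells, had promoter summits for ETO2-GLIS2 but not for AML1-ETO. Its strongest peaks ranked high in all 4 lists (0.919% and 1.06% for AML1-ETO, 0.667% and 0.409% for ETO2-GLIS2). Only summits within 1 kb of a start site were counted, and whether peaks reached over the start sites of partners was not computed. The missing summit therefore does not show that AML1-ETO was absent from the SPI1 promoter. LMO1, a relative of LMO2, had AML1-ETO peaks only (3.66% and 4.41%). LMO4, another relative, had promoter summits of AML1-ETO (strongest peak 7.33% and 4.87%). The ETO2-GLIS2 peaks of LMO4 had their summits more than 1 kb from its start sites (21.4% and 34.3%). TCF4, an E-protein partner of TAL1 and LYL1, had AML1-ETO peaks only (37.4% and 15.2%).

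The farthest summit inside was an ETO2-GLIS2 peak of 12 h at 19989 bp from KLF1 (80.7%), and the nearest outside an AML1-ETO peak of 48 h at 20093 bp from NFE2 (74.7%). AML1-ETO peaks at 20397 bp (48 h, 12.3%) and 20516 bp (12 h, 16.9%) from LMO2 were also just outside. Of the peaks inside, 11 of 76 and 10 of 108 for AML1-ETO and 13 of 44 and 9 of 35 for ETO2-GLIS2 lay within 1 kb of the start site of another protein-coding gene. Without them, 8 genes at 12 h and 9 at 48 h had an AML1-ETO peak, and 8 and 7 an ETO2-GLIS2 peak. This setting was chosen after seeing the data. The same shares were not computed over all peaks of the lists or over all genes. No trait of the 10 genes is read from these counts.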

How the data were processed

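The deposited peak lists come from 4 ChIP libraries, each with 1 input library. Per the labels, the authors mapped their reads on hg19 using Bowtie2 (version 2.2.9) and called peaks with MACS2 (version 2.1.1.20160309) per library without pooling, and SAMtools (version 1.7) and deepTools are also named in the submitters' processing notes. Settings of the peak caller and any removal of duplicate reads are not given in the sources used here. The deposited fold enrichment is a linear ratio of ChIP signal over local background at the summit. The deposited −log10 p-value and −log10 q-value come from the same program, as does the deposited score (10 times the −log10 q). The smallest −log10 q of the lists was 1.30, which is a q-value of 0.05. For the 12 h samples one label gives 48 h, but the titles give 12 h, and these were followed.

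Lines on sequences other than the autosomes and sex chromosomes (131, 126, 68 and 60 in the 4 lists) were left out. Gene models came from GENCODE 44 in its GRCh37 lift, and the GRCh37 genome gave the sequences. Peaks were assigned by the summit, overlaps needed 1 bp, and the backgrounds are all 20162 protein-coding genes or all peaks of the list. Shares have exact 95% Clopper-Pearson intervals (scipy version 1.17.1), which cover counting error only. With 1 library per group no p-value was computed. The members, motifs and gene lists were chosen with earlier results of these data known. All 10 genes are named, with the strongest peak of each list and each peak within 1 kb of a start site, and of the partners those whose promoter pattern differed between the proteins at both times. Sequences shown were picked after seeing the values. Overlap, counting of summits in gene windows and motif counting were tested on simulated data, and the overlap count was checked against bedtools (version 2.31.1).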

Additional observations from a re-analysis of the deposited data

Results flagged for a closer look

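With 1 library per group, the following differences were not tested. From 12 h to 48 h the number of peaks at the 10 genes rose by 32 for AML1-ETO and dropped by 9 for ETO2-GLIS2, although both whole lists were longer at 48 h. The opposite directions were seen at 5 genes. The number changed by 11 and -2 at LMO2, by 6 and -4 at FLI1, by 1 and -1 at GFI1B, by 3 and -3 at KLF1 and by 1 and -4 at NFE2, for AML1-ETO and ETO2-GLIS2 respectively. With a −log10 q of at least 5 the totals went from 40 to 49 for AML1-ETO and from 23 to 24 for ETO2-GLIS2, and with lists of equal length from 36 to 33 and from 44 to 35, so neither direction held under every setting.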

How the results depend on the processing

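No paired analysis was possible because each group had 1 library. Of 100 values under other settings, 56 stayed within 1.5 times the count or within the exact interval of the share, and 44 did not. Unless said otherwise values are given in the order AML1-ETO 12 h, AML1-ETO 48 h, ETO2-GLIS2 12 h and ETO2-GLIS2 48 h, and all values that moved are listed. The number of peaks at the 10 genes (76, 108, 44 and 35) was 40, 49 and 23 in the first 3 lists at a −log10 q of at least 5, and 22, 30, 11 and 15 at 10 or more. It was 37, 51, 28 and 22 with peaks within 1 kb joined and 47, 56, 22 and 16 in gene bodies only. With 50 kb to either side it was 175 for AML1-ETO at 48 h, and with lists of equal length 36 and 33 for AML1-ETO. The number of genes with any peak moved by less than 1.5 times under every setting tried. Genes with a promoter peak (5, 8, 5 and 5) fell to 3, 4, 2 and 2 when only the annotated gene start counted. A −log10 q of at least 10 left 4 for AML1-ETO at 48 h and 3 for ETO2-GLIS2 at 12 h, lists of equal length left 5 for AML1-ETO at 48 h, and promoters of 3 kb gave 8 for AML1-ETO at 12 h. Without peaks near start sites of other genes, a setting chosen after seeing the data, 3 were left for ETO2-GLIS2 at 48 h.

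The share of AML1-ETO peaks of 48 h that overlapped ETO2-GLIS2 (17.6%) was 30.6% at a −log10 q of at least 5, 33.3% at 10, 54.5% with lists of equal length, 0.926% with at least 50% overlap and 10.2% with summits within 200 bp. The share that overlapped AML1-ETO of 12 h (38.9%) was 59.2%, 66.7%, 75.8%, 25.9% and 29.6% under the same settings. The share of ETO2-GLIS2 peaks of 48 h that overlapped AML1-ETO (91.4%) was 100% at a −log10 q of at least 10 and 31.4% with summits within 200 bp, and the share that overlapped ETO2-GLIS2 of 12 h (65.7%) was 46.7% and 37.1%. The share of AML1-ETO summits of 48 h with a Runt match (18.5%) was 11.1% in windows of 100 bp and 30.6% at a −log10 q of at least 5, and that with a GATA match (13.9%) was 7.41% in windows of 100 bp. The cause was not tested beyond the fewer peaks or stricter overlap that each setting brings.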
